A study of Mus musculus with 9 samples.

Results

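Type 1 conventional dendritic cells (cDC1) from lymph nodes beside the healthy pancreas were described from the 3 libraries whose labels give the stage Healthy, out of 9 libraries in the series. The libraries were chosen by that label alone, their transcripts were summed to genes, and they are called Healthy 1, Healthy 2 and Healthy 3. The labels give the organism (mouse), the node and the stage, and the series title adds KPC, a mouse line that develops pancreatic cancer. They give no genotype, strain, sex, age, sort gate or treatment for the Healthy animals, and do not say whether a library is 1 animal or a pool. Nothing says that the 3 came from separate animals, so the SD over libraries may be partly technical. The libraries held 32150281 to 68934430 estimated counts. Each of the 3 titles starts with a different code, whose meaning the labels do not give, so a batch and a library cannot be told apart here. The code of Healthy 1 also starts titles of libraries of other stages.

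cDC1 are the dendritic cells specialised in taking up dead cells and showing their antigens on MHC class I to CD8 T cells, a process called cross-presentation. A lymph node holds cDC1 that live in the node and cDC1 that have arrived from the organ it drains. The arriving cells have matured on the way: they carry CCR7, which guides them along lymphatics, and more of the molecules that engage T cells. Maturation happens in health as well as in infection, and bulk RNA of a node mixes both kinds of cell.

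Levels are TPM, the number of transcripts per 1000000 transcripts, which are per length and so can be compared between genes, and errors are SD over n = 3 libraries unless stated. TPM is a share of all RNA in a library, and the share left for nuclear protein-coding genes differed. It was 48.7% in Healthy 1, 60.5% in Healthy 2 and 37.9% in Healthy 3. A coding gene at one and the same share of coding RNA therefore reads 1.24 times higher in Healthy 2 than in Healthy 1, and 1.60 times higher than in Healthy 3. For this reason library differences are also given on a coding scale, on which the nuclear protein-coding genes of each library sum to 1000000.

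The rest of the TPM was mainly assigned to pseudogenes and short non-coding RNA. Reads are split between similar transcripts by a model, so the pseudogene share is uncertain. The part of reads from coding genes in it was not tested. Pseudogenes held 17.0%, 21.8% and 14.1% of TPM in Healthy 1, 2 and 3. Genes annotated as miRNA held 14.1%, 5.17% and 15.5%, and the class of 7SL and 7SK RNA held 6.71%, 2.38% and 13.7%. Healthy 2 was the lowest of the 3 in both short classes and the highest in the share assigned to pseudogenes. Mitochondrial protein-coding genes were steadier, at 4.27%, 4.26% and 4.68%.

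**Figure D1:**
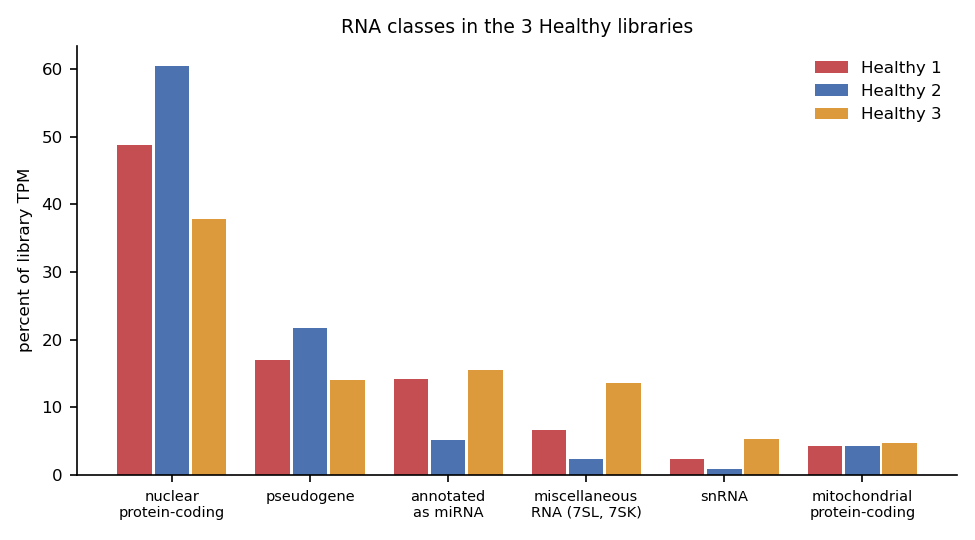
Percent of library TPM (vertical axis) in 6 RNA classes, with 1 bar for each of the 3 Healthy libraries. Healthy 2 has the tallest bar for nuclear protein-coding genes (60.5%) and the shortest for annotated miRNA, 7SL and 7SK RNA, and snRNA.

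The most abundant entry of the whole transcriptome was a gene annotated as miRNA, and its sequence is shown for that reason. Gm23935, whose annotated transcript is 57 bases at chr16:11144125-11144181 on the plus strand, read 92454 TPM in Healthy 1, 7916 in Healthy 2 and 114837 in Healthy 3. The whole of that transcript is also the sequence of Gm24245 and of Gm24270, so reads from these genes cannot be told apart. Neither Gm24245 nor Gm24270 has an entry of its own among the levels used here. The transcript is from GENCODE M21 on GRCm38 and is printed whole, with no part marked.
Gm23935: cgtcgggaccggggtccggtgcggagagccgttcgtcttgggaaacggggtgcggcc

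Every one of the 12 genes of the cDC1 identity list was present above 10 TPM in every library. XCR1, the receptor for the chemokine XCL1 and the most specific surface marker of cDC1, is encoded by Xcr1 (ENSMUSG00000060509, chr9:123852315-123862029, minus strand). It read 61.3 TPM in Healthy 1, 147 in Healthy 2 and 43.2 in Healthy 3. Clec9a, the receptor for actin exposed by dead cells (ENSMUSG00000046080, chr6:129408862-129424763, plus strand), read 186, 418 and 112 TPM. For both genes Healthy 2 was highest and Healthy 3 lowest.

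Irf8 and Batf3 encode the transcription factors that cDC1 development depends on. Irf8 (ENSMUSG00000041515, chr8:120736358-120756694, plus strand) read 316, 579 and 187 TPM, with a mean of 361 ± 200 that put it at rank 182 among protein-coding nuclear genes. Batf3 (ENSMUSG00000026630, chr1:191097847-191108945, plus strand) read 72.1, 63.0 and 46.1 TPM and varied the least of the 12 in relative terms. Naaa, an amidase of lysosomes, was the most abundant of the list, at 384, 999 and 283 TPM. Id2, which represses the B cell and plasmacytoid programmes, followed Irf8 at 344, 349 and 181 TPM.

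Among the other members, Wdfy4, needed for cross-presentation of cell-bound antigen, read 83.6, 274 and 72.6 TPM. Cd8a read 63.6, 121 and 41.9 TPM, Tlr3 40.2, 83.2 and 31.5 TPM, and the adhesion gene Cadm1 33.3, 91.5 and 25.1 TPM. Snx22 and Itgae, the gene of CD103, averaged 39.9 ± 25.1 and 32.2 ± 27.3 TPM. Healthy 2 was the highest library for 11 of the 12, and on the coding scale for 10 of the 12, where Id2 and Batf3 were highest in Healthy 1. Among all 15264 genes with a mean of at least 1 TPM, 42.5% were highest in Healthy 2, and on the coding scale 25% of 11865 coding genes.

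**Figure D2:**
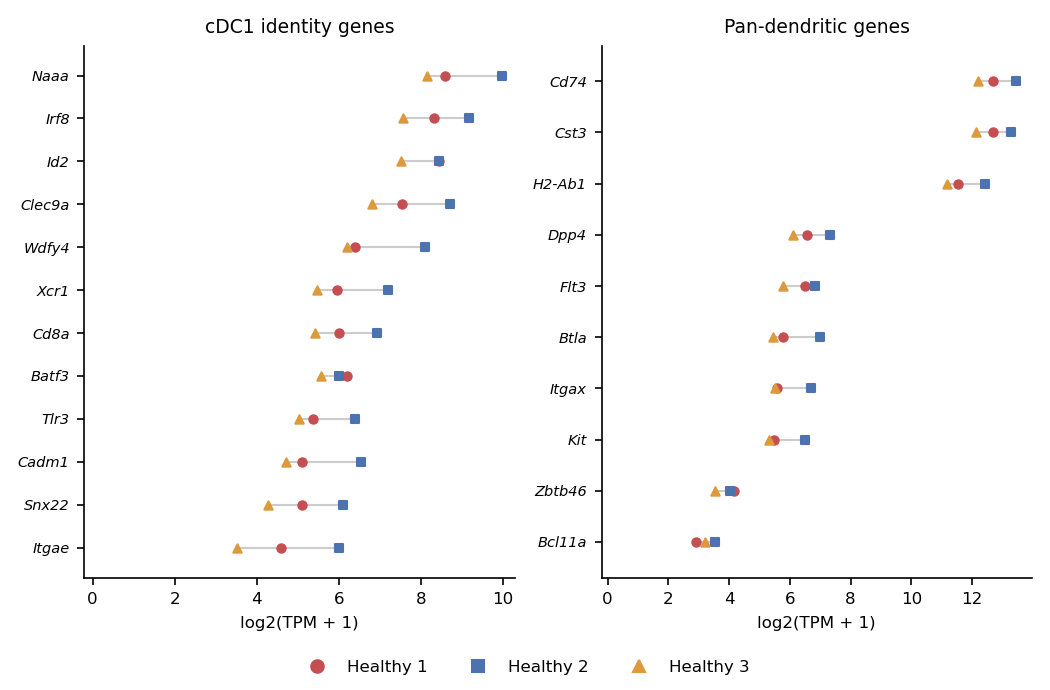
Level of each cDC1 identity gene and each pan-dendritic gene in log2(TPM + 1) (horizontal axis), with 1 point for each Healthy library and a grey line over their range. All 12 identity genes lie above 10 TPM in each library, and Healthy 2 is the highest point for 11 of them.

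Genes shared by dendritic cells as a class were also all present. Flt3, the receptor whose ligand sustains dendritic cells, read 89.8, 114 and 53.5 TPM, and Zbtb46, a factor of conventional dendritic cells, read 17.0, 15.3 and 10.7 TPM. Itgax, the gene of CD11c, read 46.9, 102 and 44.6 TPM, and Kit read 43.9, 89.4 and 38.3 TPM. The label cDC1 thus matched the genes measured.

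Markers of other cells ranged from absent to levels near those of some cDC1 genes. The 11 neutrophil genes, the 8 mast cell and basophil genes and the 14 epithelial and acinar genes had no member with a mean of 1 TPM. Summed over the 14 T cell genes, Healthy 1 held 331 TPM, Healthy 2 145 and Healthy 3 56.4, beside 1641, 3255 and 1052 TPM for the 12 cDC1 identity genes. The T cell receptor constant gene Trac read 60.7, 62.3 and 3.51 TPM, so Healthy 3 stood far below the others. In Healthy 1 Trac was close to the level of Xcr1 given above. Of the 10 NK cell genes 5 were under 1 TPM in every library, Ncr1 and Prf1 among them, while Gzma read 22.2, 0.208 and 0.794 TPM. The 14 B cell genes summed to 246, 244 and 128 TPM, most of it from the immunoglobulin constant genes Ighm and Igkc, while Cd79a averaged under 1 TPM. The 13 genes of the list for type 2 conventional dendritic cells summed to 184, 145 and 154 TPM, and 12 had a mean of at least 1 TPM. Of this list, Sirpa read 7.54, 5.88 and 29.6 TPM, highest in Healthy 3. There 40.9% of it lay in a processed transcript that held 0% in Healthy 2. Itgam, the gene of CD11b, averaged 1.01 ± 0.304 TPM. Hemoglobin genes were present too, Hbb-bs at 79.5, 20.8 and 63.1 TPM. The macrophage and monocyte list summed to 173, 298 and 154 TPM, most of it from Lyz2 (66.5, 129 and 59.0 TPM), Cd68 and Ccr2. The stroma and endothelium lists summed to at most 16.8 TPM in a library, and the plasmacytoid list to 119, 91.5 and 93.5 TPM.

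In all, 11422 genes reached 1 TPM in every library, 10235 of them among 21883 protein-coding nuclear genes. The 100 most abundant genes held 57.0% of mean TPM. Antigen presentation stood out among the most abundant coding genes. Cd74, the invariant chain that guards and guides MHC class II, read 6590 TPM in Healthy 1, 11130 in Healthy 2 and 4665 in Healthy 3, and was rank 5 of the coding genes. The class II chains H2-Aa, H2-Ab1 and H2-Eb1 averaged 4267 ± 1997, 3555 ± 1664 and 3545 ± 1726 TPM. B2m, the light chain of class I, averaged 2801 ± 895 TPM.

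The cytoskeleton supplied the highest levels among nuclear coding genes outside the ribosome. Tmsb4x, which binds actin monomers, averaged 13098 ± 4228 TPM, and Actb averaged 11808 ± 1967 TPM. Cst3, an inhibitor of cysteine proteases that is abundant in dendritic cells, averaged 6999 ± 2745 TPM. Also among the first 20 were Eef1a1 and Eef1b2 of translation elongation, Tpt1, the proteasome activator Psme2, the chaperone Hspa8, Actg1, the lysosomal Psap, Ftl1, Lsp1 and Tmsb10. The chemokine gene Ccl5 was the one of the 20 with an SD above its mean, 1740 ± 1813 TPM. The 86 cytosolic ribosomal protein genes, counted apart, held 10.8%, 15.9% and 8.26% of TPM.

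A gene's TPM is a sum over its transcripts, and short transcripts weigh heavily in it. Of the TPM of Cd74, Cst3, H2-Eb1, B2m, Psap and Ccl5, at least 99.8% lay in transcripts annotated as protein-coding. For Actb that share was 37.7%, for Psme2 3.89% and for Tpt1 1.31%. The leading Actb transcript, a processed transcript of 241 bases, held 64.8%, 59.9% and 61.4% of the TPM of Actb but only 2.78%, 2.33% and 2.68% of its estimated counts. Over all coding genes, protein-coding transcripts held 70.8%, 73.0% and 70.2% of TPM and 88.0%, 89.7% and 87.8% of estimated counts. Ranks of such genes are therefore ranks of summed TPM, not of messenger RNA.

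Antigen loading genes were expressed throughout both pathways. All 21 genes of MHC class I and its loading and all 20 of class II were at or above 1 TPM in every library. The class I heavy chains H2-D1 and H2-K1 averaged 1179 ± 348 and 1068 ± 476 TPM, although genes of this family resemble each other and reads may be split between them. The immunoproteasome genes Psmb9 and Psmb8 averaged 423 ± 137 and 359 ± 53.1 TPM, and the peptide transporter genes Tap1 and Tap2 212 ± 50.6 and 132 ± 26.3 TPM. In class II, the peptide exchanger H2-DMa averaged 307 ± 189 TPM, the protease Ctss 304 ± 87.4 TPM, and Ciita, the master regulator of class II transcription, 41.1 ± 24.6 TPM.

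Of the cross-presentation list, 19 of 20 genes were at or above 1 TPM in every library. Rac2 and Cyba of the NADPH oxidase averaged 351 ± 44.1 and 295 ± 60.6 TPM, but Cybb, its catalytic subunit, read only 0.907, 1.16 and 3.86 TPM. Rab43, a GTPase used by cDC1 in cross-presentation, read 201, 435 and 132 TPM, again highest in Healthy 2. Sec22b and Snap23, which act in vesicle fusion, averaged 22.2 ± 4.44 and 45.1 ± 10.2 TPM.

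Of 32 uptake receptors, 23 had a mean of at least 1 TPM and 18 were at or above 1 TPM in every library. After Clec9a, the most abundant were Cd36, a scavenger receptor, at 60.7, 162 and 50.9 TPM, and the inhibitory lectin Clec12a at 55.1, 111 and 52.0 TPM. Havcr2, the gene of TIM-3, read 39.9, 123 and 25.8 TPM. Each of these was highest in Healthy 2. Ly75, the gene of DEC-205, averaged 15.2 ± 2.67 TPM. Mrc1, Msr1, Siglec1, Fcgr1 and Timd4, receptors typical of macrophages, were the only 5 of the list under 1 TPM in every library. The other macrophage receptors of the list, such as Mertk and Marco, reached 1 TPM in at least 1 library.

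Endosomal sensors led the pattern recognition receptors. Unc93b1, which carries Toll-like receptors to endosomes, averaged 138 ± 63.2 TPM. Tlr3, the sensor of double-stranded RNA, and Tlr11, a sensor of profilin, averaged 51.6 ± 27.7 and 45.9 ± 27.4 TPM. Tlr12, Tlr13 and Tlr9 followed at 22.8 ± 10.3, 16.4 ± 8.74 and 12.6 ± 5.12 TPM. These values overlap between neighbours in that order. Tlr5, Tlr7 and Tlr8 were under 1 TPM in every library, with Tlr7 at 0.0766, 0.127 and 0.538 TPM. The DNA sensor Aim2 averaged 28.7 ± 7.64 TPM and the adaptor Tmem173, the gene of STING, 13.8 ± 1.498 TPM.

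Of 24 chemokine receptors and related receptors, 11 were under 1 TPM in every library. Ccr7 had the highest mean, 173 ± 190 TPM, but that mean rested on Healthy 1 and Healthy 3. Xcr1 came next, and others of the list included Ccr2 at 28.6, 55.4 and 32.9 TPM, and Cxcr3, which responds to CXCL9 and CXCL10, at 17.5, 35.1 and 12.7 TPM. Ccr7 was the highest receptor of the list in Healthy 1 and Healthy 3, and in Healthy 2 it stood below Xcr1, Ccr2, Cxcr3 and Cxcr4, among others.

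Cytokine receptors were broad, with 30 of 37 genes at or above 1 TPM in every library. Ifngr1, a chain of the interferon gamma receptor, led at 149, 360 and 140 TPM. Csf2rb, the shared chain of the GM-CSF receptor, averaged 67.4 ± 28.1 TPM, Il6st, the signalling chain for IL-6, 36.3 ± 19.1 TPM, and Ifnar2, a chain of the type I interferon receptor, 30.3 ± 11.2 TPM. Il21r read 41.8, 4.50 and 18.1 TPM and Tnfrsf1b read 46.4, 8.69 and 25.7 TPM, so both were lowest in Healthy 2. Csf3r, Il1r1 and Il12rb1 were under 1 TPM in every library.

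Cytokine genes were few and low. Il15, whose product sustains CD8 T and NK cells, led at 154, 52.0 and 116 TPM, but only 14.3% of its TPM lay in protein-coding transcripts. Tgfb1 averaged 39.6 ± 15.02 TPM, Il16 26.0 ± 11.9 TPM and Ebi3 24.9 ± 7.91 TPM. Il12b, the p40 chain of IL-12, read 32.02, 2.23 and 9.59 TPM, whereas Il12a, the p35 chain that completes IL-12, had 2, 1 and 2 estimated counts. Il10, Il1a, Il23a and Tnfsf4 were under 1 TPM in every library. Csf2, Ifnb1, Ifnl2 and Ifnl3 had no estimated count in any library, which allows up to 3 counts, or 0.0933, 0.0653 and 0.0435 CPM in Healthy 1, 2 and 3 (counting error only).

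**Figure D3:**
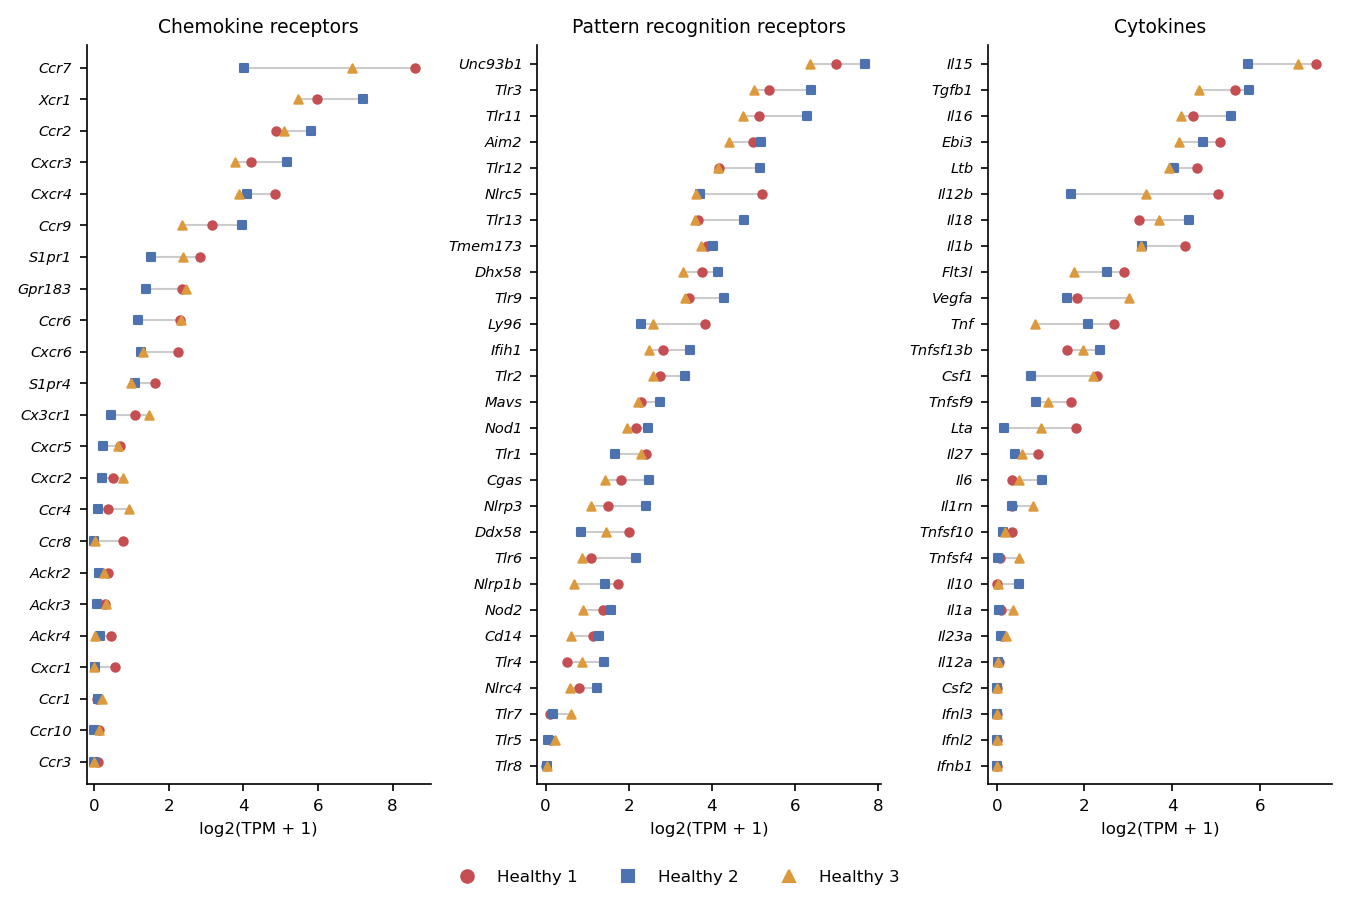
Level of the plotted genes of the chemokine receptor, pattern recognition receptor and cytokine lists in log2(TPM + 1) (horizontal axes), ordered by mean, with 1 point for each Healthy library. Ccr7 and Il12b have wide grey range lines with Healthy 1 at the top and Healthy 2 at the bottom, whereas Xcr1, Tlr3 and Tlr11 have Healthy 2 at the top.

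Chemokine genes were led by Ccl5, which attracts T cells, at 3679, 88.2 and 1451 TPM. Ccl22, which attracts CCR4-bearing T cells, read 204, 13.3 and 134 TPM. Cxcl9, an interferon gamma target that attracts CXCR3-bearing T cells, ran the other way at 84.9, 195 and 55.7 TPM. Cxcl16 averaged 106 ± 52.8 TPM. Cxcl10, also an interferon target, averaged 6.75 ± 5.21 TPM.

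Transcription factors of the list were nearly all detected, 52 of 55 in every library. After Irf8, Fos and Id2 came Spi1, the gene of PU.1, at 144, 182 and 91.0 TPM, and Irf5 at 110, 151 and 66.6 TPM. Mycl, a Myc relative that dendritic cells use in place of Myc, read 41.6, 135 and 24.4 TPM, while Myc averaged 6.75 ± 3.01 TPM. Factors of other lineages were low: Irf4, linked to type 2 dendritic cells, averaged 1.60 ± 0.974 TPM, and Maf of macrophages 1.03 ± 0.484 TPM. Relb, the NF-kB subunit of mature dendritic cells, read 127, 20.7 and 51.9 TPM, and Bhlhe40 27.5, 5.999 and 18.9 TPM.

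Maturation genes differed widely between the 3 libraries. Ccr7 (ENSMUSG00000037944, chr11:99144196-99155077, minus strand) read 384 TPM in Healthy 1, 15.2 in Healthy 2 and 119 in Healthy 3, from 43543, 2180 and 34381 estimated counts. Healthy 1 was 25.3-fold and Healthy 3 7.83-fold above Healthy 2. Fscn1, which bundles actin in the protrusions of mature dendritic cells (ENSMUSG00000029581, chr5:142960343-142973185, plus strand), read 2216, 67.7 and 953 TPM. In protein-coding transcripts of Fscn1 alone the values were 622, 22.7 and 309 TPM. Both genes gave the same order, Healthy 1 above Healthy 3 above Healthy 2.

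That order held for 35 of the 40 genes of the maturation list, and for 36 on the coding scale. Among all genes with a mean of at least 1 TPM it held for 12.2%, and on the coding scale for 16.8% of coding genes. All 40 passed that mean, and 37 were at or above 1 TPM in every library. Ankrd33b, Pdcd1lg2 and Slco5a1 were under 1 TPM in Healthy 2. The list was chosen with earlier results of these data known, so its order is a description.

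In Healthy 1 against Healthy 2, 23 of the 40 were 4-fold or more higher and none was 4-fold lower, with 4-fold measured on log2(TPM + 1). Over all 15264 genes 7.3% were 4-fold higher and 1.96% lower. The median difference of the list was 2.75 on that log2 scale, against 0.00 for all genes, and 3.07 on the coding scale, against 0.20 for coding genes. Each library is 1 sample, so these differences have no replicate check and no test.

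Healthy 3 stood between the others. Against Healthy 2, 16 of the 40 were 4-fold or more higher and none lower, beside 8.38% higher and 2.71% lower over all genes. The median difference was 1.75 against -0.13 for all genes, and 2.50 against 0.33 on the coding scale. Healthy 1 exceeded Healthy 3 for 38 of the 40, beside 8857 of all 15264 genes. On the coding scale it did so for 37, beside 4374 of 11865 coding genes. None of the 40 was 4-fold apart, beside 4.64% of all genes 4-fold higher and 3.73% lower. The median of Healthy 1 minus Healthy 3 was 0.92 against 0.13 for all genes, and 0.56 against -0.17 on the coding scale.

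The migration and adhesion members were among the widest. Besides Ccr7 and Fscn1, the tetraspanin gene Cd63 read 213, 9.50 and 111 TPM, Anxa3 354, 23.8 and 153 TPM, and Marcksl1 252, 34.9 and 124 TPM. Icam1, the ligand of the T cell integrin LFA-1, differed less, at 92.2, 51.1 and 51.6 TPM. Healthy 2 was the lowest library for all of them.

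Secreted members showed the same order with wide ranges. Ccl5, Ccl22 and Il12b are given above, and Ccl17 was the exception, highest in Healthy 3 at 21.1, 10.9 and 31.9 TPM. Ccl5 is also made by T and NK cells. The T cell genes summed to 331, 145 and 56.4 TPM in Healthy 1, 2 and 3, and the NK cell genes to 78.8, 65.0 and 30.1 TPM. Ccl5 in Healthy 3 was 16.4-fold above Healthy 2. The part of T and NK cells in the Ccl5 level of any library was not tested.

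Costimulatory members did not share 1 order. Cd40, the receptor of T cell help, read 79.0, 34.4 and 54.0 TPM, and Cd83 read 87.3, 31.7 and 47.3 TPM, although 95.3% to 95.8% of the TPM of Cd83 in each library lay in a retained-intron transcript of 2158 bases. Cd86, a ligand of CD28, ran the other way at 80.7, 151 and 52.2 TPM, and Cd80 read 7.19, 9.30 and 6.43 TPM. On the coding scale Cd86 was still highest in Healthy 2, at 166, 250 and 138, and Cd80 was highest in Healthy 3, at 14.8, 15.4 and 17.0.

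Of the 18 inhibitory and tolerogenic genes with a mean of at least 1 TPM, 10 had the order of Ccr7, beside 12.2% of all genes. Highest in Healthy 2 were 7 of the 18, Havcr2 and Btla among them, which is near the 42.5% of all genes. On the coding scale these counts were 10 and 6, beside 16.8% and 25% of coding genes. Pdcd1lg2, the gene of PD-L2, read 12.2, 0.843 and 5.72 TPM, and Cd274, the gene of PD-L1, 11.5, 3.20 and 6.95 TPM. Il4i1, an amino acid oxidase that restrains T cells, read 145, 8.52 and 79.7 TPM. Socs2, a brake on cytokine signalling, read 53.3, 3.03 and 25.2 TPM. Outside the maturation list, Aldh1a2, the enzyme that makes retinoic acid, read 94.7, 4.01 and 32.7 TPM. Ido1 was low, with a mean of 0.778 ± 0.484 TPM.

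NF-kB members of the list differed in size. Relb was 6.15-fold higher in Healthy 1 than in Healthy 2. Nfkb2 read 53.7, 26.9 and 27.6 TPM, so Healthy 2 and Healthy 3 hardly differed, and the inhibitor of apoptosis Birc3 read 172, 106 and 90.8 TPM. Traf1 read 204, 69.2 and 108 TPM. Fabp5, a fatty acid binding protein, was highest in Healthy 3, at 30.9, 18.2 and 60.6 TPM.

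The other members of the list are less often named as markers but gave the same order. Apol7c, an apolipoprotein L family gene of cDC1, read 698, 108 and 390 TPM, and Serpinb6b, a protease inhibitor, 718, 250 and 375 TPM. Tmem123 read 599, 51.1 and 335 TPM. Each was highest in Healthy 1 and lowest in Healthy 2. Cacnb3, a calcium channel subunit, read 179, 14.1 and 94.0 TPM, and Tnfrsf4, the gene of OX40, 63.6, 3.56 and 29.7 TPM. H2-M2, a non-classical class I gene, read 55.0, 3.75 and 35.4 TPM. In Healthy 2 all of these but Apol7c, Serpinb6b and Tmem123 were under 15 TPM.

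Narrower differences were seen for Serpinb9, an inhibitor of granzyme B, at 90.0, 31.0 and 39.7 TPM, for Net1 at 167, 50.4 and 90.6 TPM and for Il15ra, which presents IL-15 to neighbouring cells, at 35.9, 8.86 and 13.0 TPM. Samsn1, Nudt17, Adcy6 and Zmynd15 read between 58.4 and 116 TPM in Healthy 1 and between 3.12 and 15.6 TPM in Healthy 2. Cd200, an inhibitory ligand, read 79.9, 26.0 and 45.9 TPM. Ankrd33b and Slco5a1 were low, with means of 8.25 ± 6.98 and 3.61 ± 2.94 TPM.

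**Figure D4:**
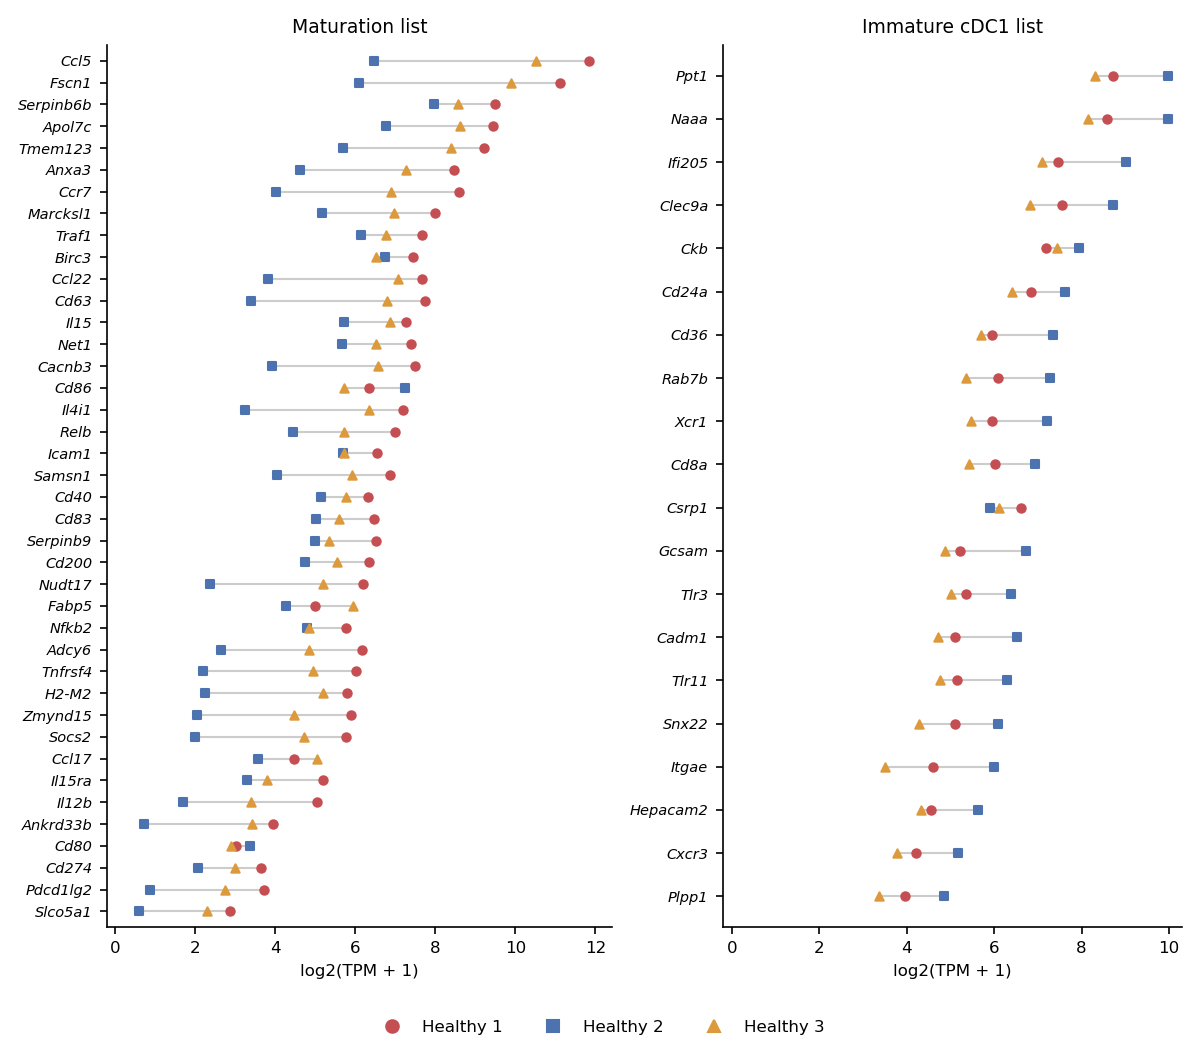
Level of the 40 maturation genes and the 20 immature cDC1 genes in log2(TPM + 1) (horizontal axes), ordered by mean, with 1 point for each Healthy library. In the left panel 35 genes run Healthy 2, Healthy 3, Healthy 1 from low to high, and in the right panel Healthy 2 is the highest point for 19 of 20.

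Genes of the immature state ran opposite to those of maturation in the comparisons with Healthy 2, but not between Healthy 1 and Healthy 3. There 19 of 20 were higher in Healthy 1 (14 on the coding scale), beside 8857 of all 15264 genes (4374 of 11865 coding genes on the coding scale). Of the 20 genes of the immature cDC1 list, 19 were highest in Healthy 2, beside 42.5% of all genes. On the coding scale 18 were, beside 25% of coding genes. Csrp1 was the exception on both scales, and Ckb was highest in Healthy 3 on the coding scale. The median difference of Healthy 1 minus Healthy 2 was -1.15 against 0.00 for all genes, and -0.85 against 0.20 on the coding scale. For Healthy 3 minus Healthy 2 it was -1.66 against -0.13, and -0.99 against 0.33 on the coding scale. Healthy 1 and Healthy 3 differed by a median of 0.43 against 0.13, and by 0.08 against -0.17 on the coding scale. The list shares Xcr1, Clec9a, Tlr3, Cd8a, Itgae, Naaa, Cadm1 and Snx22 with the identity list and adds genes such as Ppt1, a lysosomal thioesterase, at 419, 999 and 314 TPM, and Ifi205 at 175, 513 and 136 TPM. Rab7b, a GTPase of late endosomes, read 66.7, 155 and 40.0 TPM, and Gcsam 36.2, 105 and 28.4 TPM. Plpp1 and Hepacam2 averaged 17.3 ± 9.62 and 30.0 ± 16.1 TPM, and Cd24a 131 ± 58.8 TPM. Csrp1, the exception, read 96.5, 58.7 and 67.6 TPM.

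The spread over the 3 libraries puts both lists in 1 measure. The median SD of log2(TPM + 1) was 1.40 over the maturation list, 0.88 over the immature list and 0.49 over all genes. On the coding scale these were 1.63, 0.57 and 0.50, and the value over coding genes alone was 0.39. Without Healthy 2 the maturation value was 0.657. In bulk RNA, more mature cells in a library and more maturation RNA per cell cannot be told apart.

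Other gene groups also differed between the libraries, in different orders. All 20 proliferation genes were highest in Healthy 2 on both scales, beside 42.5% of all genes and 25% of coding genes on the coding scale. Their median was -1.09 for Healthy 1 minus Healthy 2 and -1.95 for Healthy 3 minus Healthy 2, against 0.00 and -0.13 for all genes. The proliferation marker Mki67 read 4.22, 9.61 and 1.77 TPM and the replication clamp Pcna 61.2, 103.4 and 51.8 TPM. The list of the response to tissue handling holds 18 genes, chiefly immediate early and heat shock genes. Of these, 17, all but Hspa8, were higher in Healthy 1 than in Healthy 2, beside 7471 of all 15264 genes. All 18 were higher in Healthy 1 than in Healthy 3, beside 8857 of all genes. In Healthy 3, 0 of the 18 were higher than in Healthy 2, beside 6614 of all genes. Of these 18 genes, 9 were 4-fold or more higher in Healthy 1 than in Healthy 3, beside 4.64% of all genes. Among the 9 were Fos at 486, 392 and 75.7 TPM and Egr1 at 91.7, 51.5 and 16.2 TPM. The T cell list ran Healthy 1 above Healthy 2 above Healthy 3 in its sum.

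The handling genes and the summed T cell genes were highest in Healthy 1, as most maturation genes were, and lowest in Healthy 3, where most maturation genes were intermediate. The median difference of Healthy 1 minus Healthy 3 was 2.07 for the handling list and 2.57 for the T cell list, against 0.92 for the maturation list. The median SD of log2(TPM + 1) was 1.47 over the 4 NK cell genes with a mean of at least 1 TPM. Nuclear protein-coding share was highest in Healthy 2 and lowest in Healthy 3. The part of handling, other cells and RNA class shares in the maturation differences was not tested. Of 26 type I interferon response genes, 25 were higher in Healthy 1 than in Healthy 3, beside 8857 of all 15264 genes. Higher in Healthy 3 than in Healthy 2 were 3, beside 6614 of all genes. On the coding scale these counts were 20, beside 4374 of 11865 coding genes, and 11, beside 7993. Isg15 read 17.1, 16.2 and 9.48 TPM. The median over 26 genes was 0.02 for Healthy 1 minus Healthy 2, 0.55 for Healthy 1 minus Healthy 3 and -0.55 for Healthy 3 minus Healthy 2. On the coding scale these were 0.29, 0.25 and -0.08.

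Most of the genes furthest apart between libraries were of 2 kinds. In Healthy 1 against Healthy 2 the 6 coding genes with the largest positive difference, at a mean of at least 10 TPM, were Ccl5, Fscn1, Ccr7, Asprv1, Cd63 and Aldh1a2, from 5.37 down to 4.26 on the log2 scale. Asprv1, a retroviral-like aspartic protease, read 38.5, 0.868 and 18.3 TPM. Each of the 6 still differed by 4.26 or more in protein-coding transcripts alone. In the other direction Ctse, the gene of cathepsin E, differed by -4.29, at 1.76, 53.1 and 20.4 TPM. The 6 largest positive differences of Healthy 1 minus Healthy 3 included Ms4a4b, at 27.8, 5.27 and 2.57 TPM, whose leading transcript has 4750 bases. They also included Cd3d of the T cell list, at 22.8, 12.2 and 1.66 TPM. Its leading transcript by mean TPM, Cd3d-202, has only 286 bases and had 38.1, 37.5 and 0 estimated counts. Cd3d-201, of 1617 bases, read 8.96, 1.56 and 1.66 TPM, so in it Healthy 3 was not below Healthy 2.

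The second kind were genes led by very short transcripts. Tmem159 differed by -4.14 between Healthy 1 and Healthy 2, but by -0.01 in protein-coding transcripts, its leading transcript having 102 bases. Zfp969, with the largest negative difference of Healthy 3 minus Healthy 2 (-5.02), rested on 28.0, 65.2 and 5.87 estimated counts, and its leading transcript has 252 bases. Of all genes tested, 15.4% had a leading transcript under 300 bases, but of those 4-fold higher in Healthy 1 than in Healthy 2, 77.0% did. In Healthy 1 against Healthy 3 the share was 83.9% of the higher and 86.1% of the lower genes. Of the 40 maturation genes 2 had such a leading transcript, and of the 20 immature genes none.

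Leading transcripts were shared between libraries for most but not all genes. Among 6965 coding genes with a mean of at least 5 TPM and 2 or more transcripts, the same transcript had the highest TPM in all 3 libraries for 4206, or 60.4%. For 977, or 14.03%, it held at least 80% of the gene's TPM in every library. The leading transcript was not annotated as protein-coding for 810 of the 4206, and 303 of these were retained introns. The same leader was more common by estimated counts, at 78.6% of genes.

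The lineage genes had steady leading transcripts. Irf8-201 held 90.2%, 91.6% and 94.9% of Irf8, Flt3-201 held 98.8%, 99.7% and 99.1% of Flt3, and Id2-201 held 97.0%, 99.1% and 97.6% of Id2. Batf3-201 held 70.5%, 67.9% and 71.0% of Batf3. Clec9a was split among 4 protein-coding transcripts, of which Clec9a-204 (446 bases) led by TPM with 47.1%, 47.7% and 53.5%, while Clec9a-201 (3293 bases) led by estimated counts with 63.3%, 64.9% and 66.6%. Which transcript leads Clec9a thus depends on the unit.

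Several immune genes had different leading transcripts in different libraries. Relb-202 held 45.9% and 61.2% of Relb in Healthy 1 and Healthy 3 but 9.90% in Healthy 2, where Relb-203, of nearly the same length, held 61.2%. Il18-204 led in Healthy 1 and Healthy 2, with 59.8% and 88.7%, and Il18-202 led in Healthy 3, with 66.2%. Il15 was led in Healthy 2 by Il15-207 (81.5%) and in the others by Il15-208, both processed transcripts under 300 bases. The split of reads between such similar transcripts is a model estimate, and no replicate check exists within a library.

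Some leaders were not coding at all. Psme2-203, a retained intron of 185 bases, held 74.6%, 73.3% and 73.2% of the TPM of Psme2 and 7.33%, 6.96% and 6.79% of its estimated counts. Ltbr-203, a retained intron of 215 bases, held 86.0%, 73.6% and 73.3% of Ltbr, the lymphotoxin beta receptor, while Ltbr-201 held 97.2%, 98.7% and 95.3% of its estimated counts. For Fscn1 the leader was a processed transcript of 344 bases with 49.0%, 38.5% and 47.4%.

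**Figure D5:**
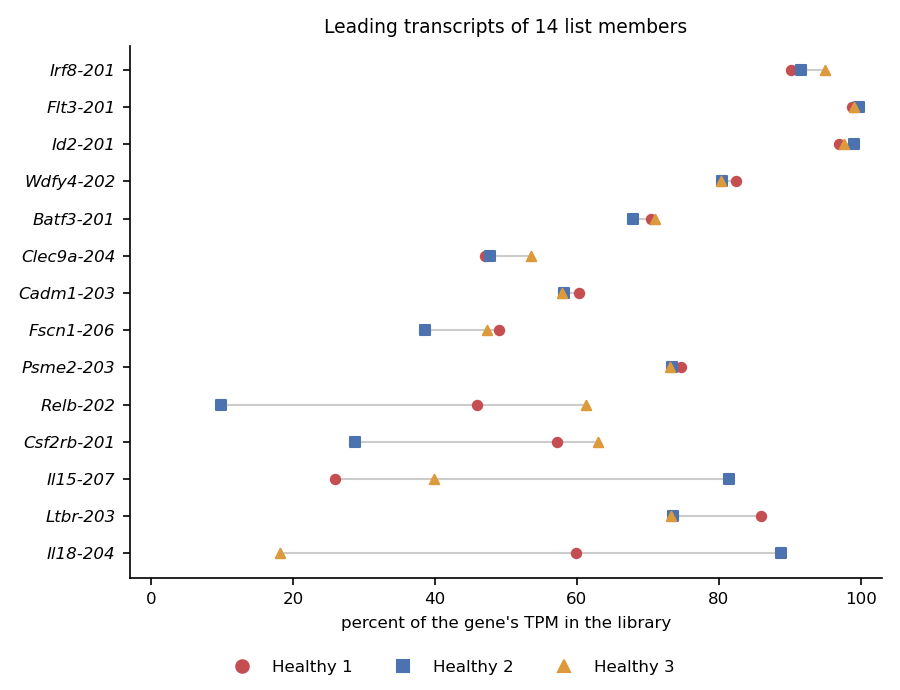
Percent of a gene's TPM held by its leading transcript (the one with the highest mean share) in each Healthy library (horizontal axis), for 14 list members. Irf8, Flt3 and Id2 lie at 90% or above in each library, whereas the points of Relb, Il15 and Il18 are spread over 50 percentage points or more.

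Promoters of the lists were searched for 4 short motifs, since members of both lists varied together. The window ran from 250 bases before to 50 after each start in RefSeq (GRCm38.p6), and 27 of the 40 maturation genes and 10 of the 12 identity genes had an entry. Both strands were searched for 4 patterns: NF-kB (GGG, any 2 bases, TT, any base, CC), AP-1 (TGANTCA), IRF (GAAA, any 2 bases, GAAA) and ETS-IRF (GGAA, any 2 bases, GAAA). IRF and ETS-IRF matches can overlap. Of 33 maturation promoters, 9.09% held the NF-kB letters, all 3 of them windows of Nfkb2, of which 2 overlap, against 4.79% of all 32851 promoters. AP-1 letters stood in 9.09% against 7.81%, IRF letters in 6.06% against 3.44% and ETS-IRF letters in 3.03% against 2.715%. Among 12 identity promoters, NF-kB letters stood in 3, or 25% (Tlr3 and Snx22), ETS-IRF letters in 1 (Cd8a) and the others in none. The immature list had 17 promoters, from 15 of its 20 genes. NF-kB letters stood in 17.65% of them (Tlr3 and Snx22), IRF letters in 11.76% (Ifi205 and Tlr11), ETS-IRF letters in 5.88% (Cd8a) and AP-1 letters in none. These matches are a description of the letters, not of binding.

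The following 3 promoters are printed because they hold matches, which are in capitals. Nfkb2 is a maturation gene, in the second of its windows, chr19:46305445-46305744 on the plus strand, with AP-1 letters followed by NF-kB letters. Tlr3 (chr8:45410331-45410630, minus strand) holds NF-kB letters and Cd8a (chr6:71373177-71373476, plus strand) holds ETS-IRF letters at 2 places, both read on the opposite strand.
Nfkb2: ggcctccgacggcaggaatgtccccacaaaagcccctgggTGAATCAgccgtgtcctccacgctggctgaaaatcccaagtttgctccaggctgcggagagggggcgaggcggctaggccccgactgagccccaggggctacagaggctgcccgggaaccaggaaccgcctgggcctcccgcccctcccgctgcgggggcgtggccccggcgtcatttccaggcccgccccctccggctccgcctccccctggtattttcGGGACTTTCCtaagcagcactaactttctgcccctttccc
Tlr3: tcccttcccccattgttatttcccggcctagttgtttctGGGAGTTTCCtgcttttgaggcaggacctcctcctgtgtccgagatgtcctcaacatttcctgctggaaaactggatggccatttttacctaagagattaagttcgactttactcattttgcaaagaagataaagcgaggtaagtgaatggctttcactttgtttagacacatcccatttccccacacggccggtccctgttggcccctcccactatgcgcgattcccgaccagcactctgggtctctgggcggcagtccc
Cd8a: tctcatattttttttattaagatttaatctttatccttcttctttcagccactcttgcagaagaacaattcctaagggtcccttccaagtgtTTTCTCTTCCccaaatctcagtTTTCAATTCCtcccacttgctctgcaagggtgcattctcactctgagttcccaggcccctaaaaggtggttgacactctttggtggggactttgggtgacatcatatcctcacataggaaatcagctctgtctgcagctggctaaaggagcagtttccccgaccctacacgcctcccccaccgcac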

How the data were processed

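RNA of cDC1 was sequenced in 3 Healthy libraries, prepared with a directional kit per the labels' protocols. Each transcript has an estimated count and a TPM value made by the authors. The submitters' processing notes name Salmon and mm10, but the names of the deposited tables mention sailfish, so which tool made the values is not settled; its version, settings and strand use: not given in the sources used here. Reads are split between similar transcripts by a model, so paralogs and pseudogenes are uncertain. The deposited TPM sum to 1000000 per library, and the deposited estimated counts are not normalized.

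Of 136288 transcripts 136176 were matched to GENCODE M21 (GRCm38) and summed to 53458 genes, leaving 112 unused. At least 99.98% of each library's TPM was matched. Differences were taken on log2(TPM + 1) for genes with a mean of at least 1 TPM, called from 4-fold. No test was run, since there is no second group and each library is 1 sample. TMM-scaled CPM from rounded estimated counts (edgeR 4.0.16, R 4.3.3) served as an alternative. The calculation was tested on simulated data.

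Of 641 entries in 34 gene lists 639 were matched (not Cd58 and Rn7s2). Members and lists were chosen with earlier results of these data known. Named genes were the 20 most abundant coding genes outside the ribosome, all identity and maturation genes, up to 8 of each other list and those absent, the 6 coding genes furthest apart per pair and direction at a mean of at least 10 TPM, and leading transcripts of list members at a mean of at least 20 TPM. Other genes named were chosen after their values were seen. Alternatives changed the pseudocount, the filter, the scale, the unit and the libraries; one, protein-coding transcripts alone, was chosen after seeing the data. Some members and a sequence are not reported here. Precision is limited by 3 libraries.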

Additional observations from a re-analysis of the deposited data

How the results depend on the processing

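Of 75 alternatives to 13 results, 30 moved beyond the spread and 0 reversed. Only the medians of the maturation and immature lists carry a sign, so the counts, shares and SDs could not reverse. The 71 named levels moved beyond 1 SD on the coding scale alone, which rescales every gene. No paired analysis was possible because there is only 1 group. Genes detected in every library numbered 6621 at 5 TPM, and the 100 most abundant coding genes held 43.9% of coding TPM. Genes 4-fold apart depended on the setting. For Healthy 1 and 2 (1413) they numbered 2142 and 575 at pseudocounts of 0.1 and 5, 890 at a mean of 5 TPM, 501 on the coding scale, 271 by TMM-scaled CPM and 197 in protein-coding transcripts. For Healthy 1 and 3 (1278) they numbered 588 at a pseudocount of 5, 785, 284, 97 and 120 in the same order. For Healthy 3 and 2 (1693) they numbered 3104 and 740 at the pseudocounts, 1075 by CPM and 371 in protein-coding transcripts. The higher share of calls was 78.8% in Healthy 1 against 2 (93.0% on the coding scale), 55.5% in Healthy 1 against 3 (32.4%, and 74.2% by CPM) and 75.5% in Healthy 3 against 2 (96.3%, and 86.0% by CPM). The split of Healthy 1 against 3 thus turned, from 709 higher and 569 lower to 92 higher and 192 lower on the coding scale. The median of that pair went from 0.13 over all genes to -0.17 over coding genes on the coding scale. The maturation median of Healthy 1 minus 2 was 2.07 at a pseudocount of 5, and that of Healthy 3 minus 2 was 2.50 on the coding scale. The median SD of maturation genes ran from 0.657 to 1.94 when each library was left out, lowest without Healthy 2. A shared leading transcript was found for 53.9% at a mean of 1 TPM, 70.4% at 20 TPM, 78.6% by estimated counts and 68.5% to 74.5% over pairs of libraries. A leader of 80% was found for 17.5% at 20 TPM, 30.4% by estimated counts and 15.5% to 17.8% over pairs.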

Other observations

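Genes linked to the sex chromosomes gave signal of both kinds in each library. Xist, the RNA of the inactive X, read 10.3, 3.38 and 4.55 TPM in Healthy 1, 2 and 3. The Y-linked genes Eif2s3y and Ddx3y read 15.1, 7.79 and 3.03 TPM and 6.62, 4.63 and 4.79 TPM. Y-linked Uty and Kdm5d averaged 2.90 ± 1.65 and 2.14 ± 0.463 TPM. The labels give no sex.

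Structural and nuclear non-coding RNA varied together in level. Malat1 read 401, 132 and 644 TPM, Rmrp 1582, 561 and 3074 TPM and Rpph1 1235, 399.7 and 2624 TPM, each lowest in Healthy 2 and highest in Healthy 3. The mitochondrial ribosomal RNA mt-Rnr2 had the same order, at 4038, 1876 and 7708 TPM. Neat1 did not, at 22.5, 6.89 and 12.5 TPM.

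Of the plasma cell list, Jchain read 15.5, 20.1 and 4.15 TPM and Igha 31.3, 34.3 and 8.19 TPM, both lowest in Healthy 3.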
